A study of Rattus norvegicus with 20 samples.

Results

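Constitutive proteasome subunit genes were examined in the blood of Wistar rats that were resistant or susceptible to acetaminophen (APAP) liver injury. The genes were taken by symbol alone, as every gene of the array annotation named Psma, Psmb, Psmc or Psmd with a number. The immunoproteasome subunits Psmb8, Psmb9 and Psmb10 were left out. No measured value entered this rule for the genes, though the rule was set with earlier results of these data known. The rule gave 33 of the 14217 genes that have a probe set with 1 symbol on the Affymetrix rat genome array. A probe set is a group of short oligonucleotides that gives 1 signal for a transcript. Of the 33 genes, 26 had 1 probe set, 3 had 2 and 4 had 3, and for these 7 genes the probe set with the highest mean signal was used. All 33 passed the filter on low signal. The catalytic gene Psmb6 had no probe set with 1 symbol and is not reported.

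A set of 35 male Wistar rats, an outbred strain, received 1200 mg/kg APAP by mouth after a 12 h fast that went on for 2 h after the dose, and was ranked by serum alanine aminotransferase at 24 h. Blood RNA of the 5 rats with the lowest values (resistant) and the 5 with the highest (susceptible) was hybridized. The 4 groups of 5 arrays were resistant rats before the dose (R) and after it (RA), and susceptible rats before (S) and after it (SA). Predose blood was taken behind the eye, at the retro-orbital plexus, with 1 week of recovery before the dose. Postdose blood came, per the methods, from the inferior vena cava, while the labels name the retro-orbital plexus at both times. Red cells were lysed before RNA extraction, vehicle-treated rats were not hybridized, and ages were not given. Postdose arrays therefore differ from predose arrays in day, feeding and perhaps the site of bleeding as well as in APAP, and these cannot be told apart. The sub-groups were formed on the outcome of the dose, so that S and R hold the earlier blood of rats sorted by what came later.

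The proteasome degrades proteins that carry ubiquitin chains. Its 20S core is a barrel of alpha and beta rings with the cutting sites inside, and its 19S regulatory particle has a ring of ATPases that unfold substrates and non-ATPase subunits that bind and remove ubiquitin. Under interferon, white blood cells exchange the catalytic subunits Psmb6, Psmb7 and Psmb5 for Psmb9, Psmb10 and Psmb8, which make the immunoproteasome, and many subunit genes are known to be raised together by the transcription factor Nfe2l1 when proteasome activity falls short.

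Promoter windows from 250 bases before to 50 bases after the start were matched in RefSeq (GRCr8) for 29 of the 33 genes. On both strands they were searched for TGACNNNGC, the core of the antioxidant response element that Nfe2l1 and Nfe2l2 are known to bind, and for CCAAT. The element core was found in 6 of the 29 windows, 20.7% against 12.2% of 27457 promoters, in Psma3, Psmb5, Psmb2, Psmd1, Psmd3 and Psmd9. CCAAT was found in 16 of the 29, 55.2% against 37.7% of all promoters. The median GC content of the windows was 56% against 52.3%, and neither motif count was adjusted for it. These matches describe letters and not binding. Windows are shown for Psmb5, a catalytic gene with the element core, for Psmb2, which had the largest difference between the sub-groups' changes, and for Psma2, which had the largest difference in susceptible rats. They lie on chr15:32047330-32047629 (minus strand), chr5:144254808-144255107 (plus strand) and chr17:55260392-55260691 (minus strand), each is written from 5′ to 3′, and capitals mark both motifs on either strand.
Psmb5: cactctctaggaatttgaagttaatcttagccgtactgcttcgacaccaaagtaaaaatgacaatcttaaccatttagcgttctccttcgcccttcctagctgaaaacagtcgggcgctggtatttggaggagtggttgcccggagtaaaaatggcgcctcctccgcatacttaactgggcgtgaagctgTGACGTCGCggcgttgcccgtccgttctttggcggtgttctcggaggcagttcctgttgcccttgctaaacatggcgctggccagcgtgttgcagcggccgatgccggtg
Psmb2: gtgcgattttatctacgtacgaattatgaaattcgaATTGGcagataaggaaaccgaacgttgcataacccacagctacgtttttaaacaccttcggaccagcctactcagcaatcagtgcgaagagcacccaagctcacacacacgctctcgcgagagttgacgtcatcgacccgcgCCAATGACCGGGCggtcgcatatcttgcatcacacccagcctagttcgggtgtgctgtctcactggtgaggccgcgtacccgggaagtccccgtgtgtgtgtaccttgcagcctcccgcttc
Psma2: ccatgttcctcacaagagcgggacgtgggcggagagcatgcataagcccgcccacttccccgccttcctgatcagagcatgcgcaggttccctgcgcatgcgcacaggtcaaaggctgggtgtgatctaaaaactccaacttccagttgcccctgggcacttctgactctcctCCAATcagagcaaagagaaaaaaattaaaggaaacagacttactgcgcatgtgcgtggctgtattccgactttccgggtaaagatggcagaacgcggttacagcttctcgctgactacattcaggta
In Psmb5 the match TGACGTCGC began at position -60 from the start and no CCAAT was present in the window. In Psmb2 the match TGACCGGGC began at -68 and overlapped by 1 base a CCAAT that began at -72, with a second CCAAT on the other strand at -214. Psma2 held 1 CCAAT, at -77, and no element core.

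The 33 genes had signals above the array median on every array. All values are log2 signals with every array set to a common median of 1000, which is 9.97 on this scale. The lowest of their 660 values, 12.1, belonged to Psmd1 on an RA array. The SD within groups had a median of 0.17 over the 33 genes, from 0.11 in Psmd13 to 0.25 in Psma1, and a median of 0.42 over the 30747 probe sets tested. The latter include probe sets of low signal. The spread was not compared with that of genes of similar signal, so it is not read as a trait of the subunit genes. Levels of different genes are not compared, since each probe set binds with its own strength.

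No constitutive subunit gene passed the adjusted threshold in any of the 5 comparisons (limma, Benjamini-Hochberg adjusted p under 0.05 over all probe sets tested, n = 5 arrays per group). In resistant rats (RA minus R), 0 of 33 were called while 5.11% of probe sets were, and in susceptible rats (SA minus S) 0 of 33 against 6.66%. Between the changes (SA minus S, minus RA minus R), 0 of 33 stood against 0% of probe sets, after dosing (SA minus RA) 0 against 0.143%, and before dosing (S minus R) 0 against 0.00329%. At an unadjusted p under 0.05, 1 subunit gene (Psma6, lower) stood against 17.1% of probe sets in resistant rats, and 2 (Psma2 and Psmd5, higher) against 19% in susceptible rats. The unadjusted counts were 0 against 6.90% for the difference between the changes, 3 (Psma5, Psmb2 and Psmd8, higher in SA) against 9.18% after dosing, and 0 against 3.74% before dosing. By the methods' test, with p under 0.05 and a fold change of at least 2, 0 subunit genes were called in either change, after or before dosing, where 3.10%, 3.29%, 1.82% and 1.22% of probe sets were. No subunit gene had groups without overlap, against 6.76% of probe sets for RA and R, 6.83% for SA and S, 2.23% for SA and RA and 0.529% for S and R. The comparisons share arrays and are not independent of one another.

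The intervals of these differences were narrow. They treat all arrays as independent, although R and RA, and S and SA, hold blood of the same rats. On the probe set used for each gene, the 95% confidence interval, taken singly, lay within a 2-fold change in either direction. This held for all 33 genes in all 5 comparisons. It lay within 1.5-fold for 33 genes in resistant rats, 30 in susceptible rats, 26 for the difference between the changes, 30 after dosing and 33 before dosing. The widest bounds were -0.56 and 0.44 on the log2 scale in resistant rats, -0.64 and 0.74 in susceptible rats, and -0.57 and 0.92 for the difference between the changes. For the probe sets used, a 2-fold change thus lay outside the interval of every subunit gene, while smaller changes lay inside many of them. Other probe sets of these genes, given below, do not all share these bounds. A second probe set of Psmb5, of low signal, differed by -2.30 ± 0.73 in resistant rats.

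**Figure D1:**
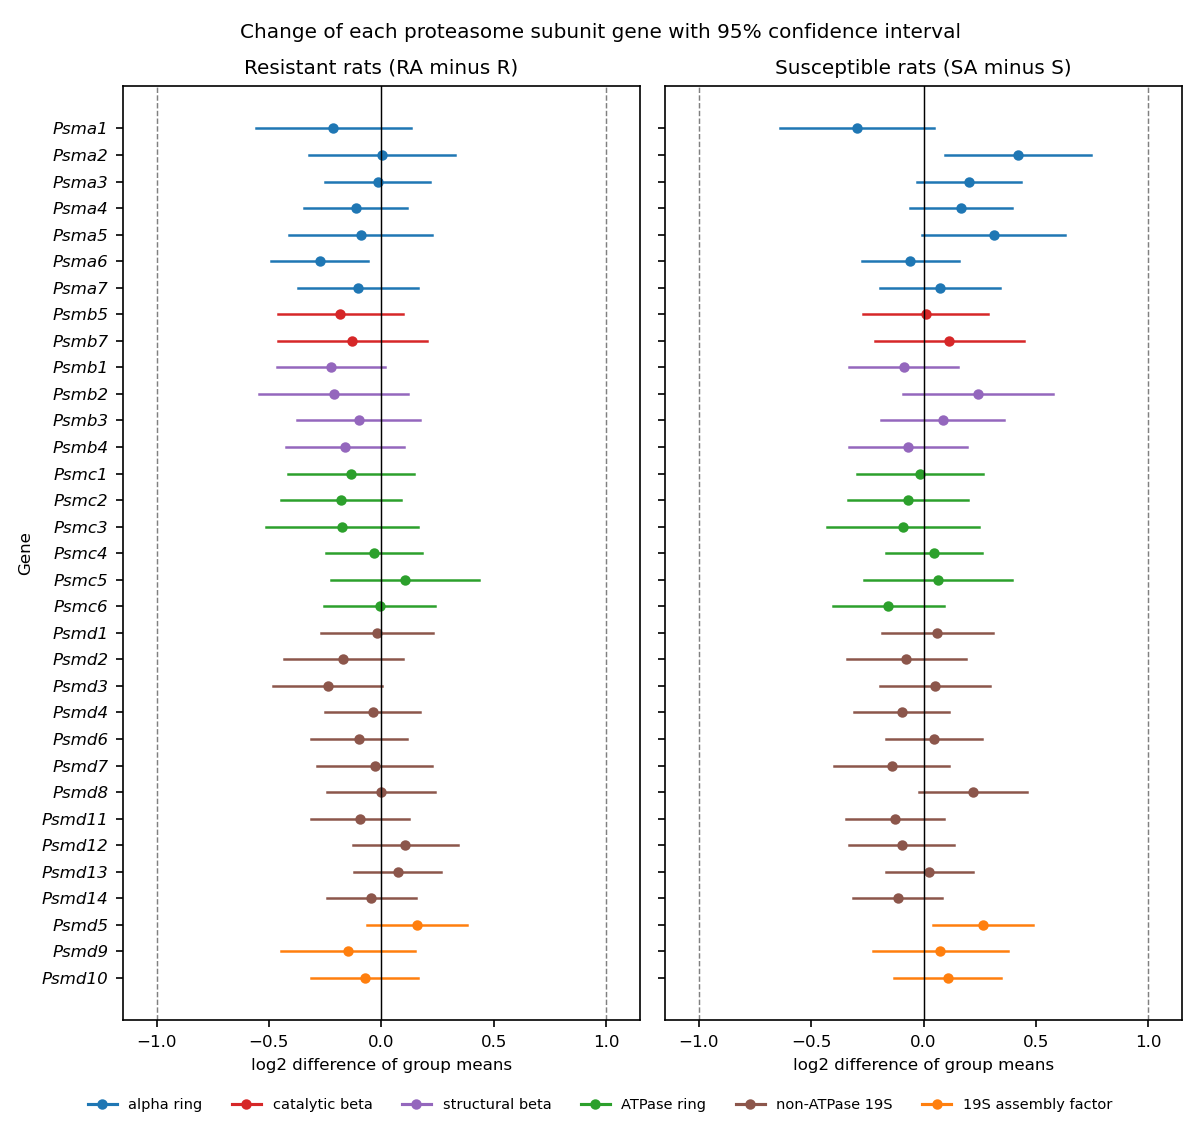
The change of each of the 33 subunit genes in resistant (RA minus R) and susceptible (SA minus S) rats, as the log2 difference of group means (points) with its 95% confidence interval (lines), coloured by role, with dashed lines at a 2-fold change. Every interval lies inside the dashed lines, and the intervals that do not cross 0 are those of Psma6 in resistant rats and of Psma2 and Psmd5 in susceptible rats.

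Most small differences ran downward in resistant rats. The median log2 difference over the 33 genes was -0.10, against -0.01 over all probe sets tested, and 28 of 33 were below 0, with a range from -0.27 (Psma6) to 0.16 (Psmd5). In susceptible rats the median was 0.05 against 0.01, 19 of 33 were above 0, and the range ran from -0.30 (Psma1) to 0.42 (Psma2). The difference between the changes had a median of 0.12 against 0.02, with 24 above 0, and ran from -0.20 (Psmd12) to 0.45 (Psmb2). After dosing the median of SA minus RA was 0.07, with 26 genes above 0, and before dosing the median of S minus R was -0.04, with 22 below 0.

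These medians moved with the scaling and with single arrays. Quantile normalization gave -0.07 in resistant rats with 22 of 33 below 0, turned the median in susceptible rats to -0.06 with 20 below 0, and left 0.03 for the difference between the changes. The signals as deposited gave -0.08, 0.01 and 0.07. For SA minus RA, quantile normalization left a median of 0.0006 with 17 of 33 genes above 0, and leaving out RA replicate 4 one of 0.02 with 17 above 0. For S minus R the median was -0.12 with 27 genes below 0 without R replicate 5, and it turned to 0.0004 and 0.0086 without R replicate 1 or 2. Without RA replicate 4 the median in resistant rats was -0.03 and that of the difference between the changes 0.05, and without R replicate 5 they were -0.17 and 0.20. Genes that share arrays move together, so the counts of direction above are no test.

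RA replicate 4 and R replicate 5 were the arrays on which the subunit genes read lowest. The mean log2 signal of the 33 genes was 14.45, 14.45, 14.37, 14.30 and 14.06 on the R arrays and 14.36, 14.32, 14.27, 13.96 and 14.29 on the RA arrays. It was 14.28, 14.41, 14.19, 14.30 and 14.30 on the S arrays and 14.35, 14.23, 14.38, 14.49 and 14.19 on the SA arrays. All 4 groups overlapped, and the group means were 14.33 for R, 14.24 for RA, 14.30 for S and 14.33 for SA. RA replicate 4 also had the highest deposited median (223.0) and the lowest upper quartile after scaling (12.09). Its log2 ratio of the actin 3′ to 5′ probe sets, a measure of RNA length, was 0.91, where the 20 arrays ran from 0.66 to 0.95. The part of these in its low reading was not tested.

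**Figure D2:**
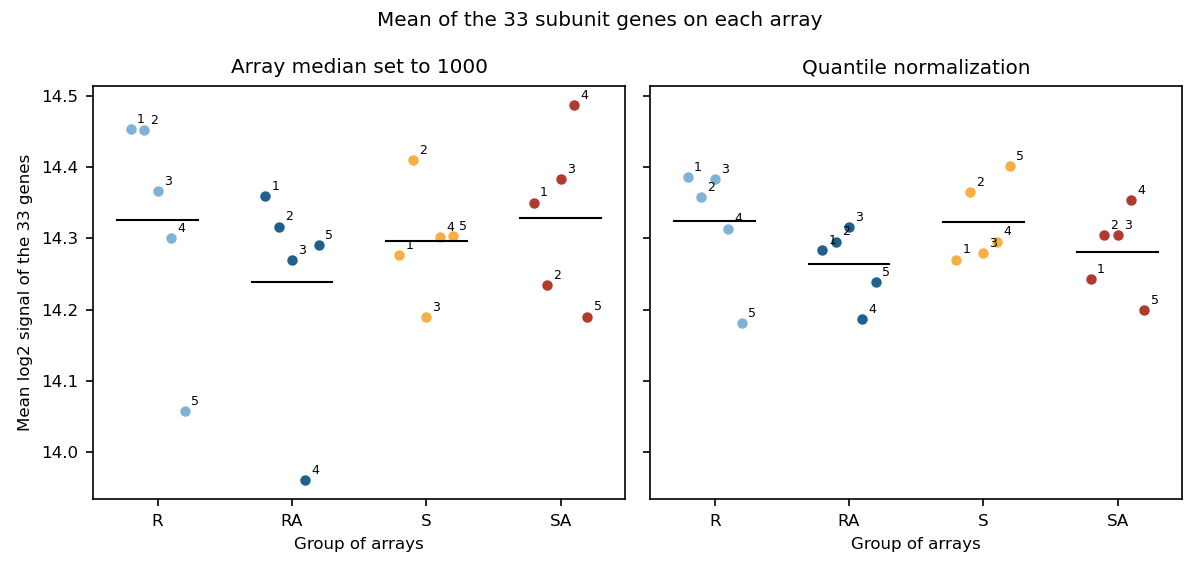
Mean log2 signal of the 33 subunit genes on each array, numbered by replicate, with the array median set to 1000 (left) and after quantile normalization (right), and a bar at each group mean. RA replicate 4 and R replicate 5 lie lowest on the left and again on the right, where all 20 arrays lie between 14.18 and 14.40.

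Of the 20S core, the alpha ring, which gates entry to the barrel, gave the largest difference of either sign in susceptible rats. Psma2 was 15.27, 15.51, 14.99, 15.20 and 15.14 on the S arrays and 15.74, 15.71, 15.87, 15.69 and 15.21 on the SA arrays. Of the SA arrays, 4 lay above every S array, and SA replicate 5 lay within the S range. The change was 0.42 ± 0.15 (SE; 1.34-fold, adjusted p = 0.12), and in resistant rats it was 0.00 ± 0.15. Without SA replicate 5 it was 0.53 and passed the threshold (adjusted p = 0.048). The difference between the changes was 0.42 with an interval from -0.04 to 0.88 (adjusted p = 0.75), so Psma2 was not shown to respond differently in the sub-groups.

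Psma6 gave the lowest difference in resistant rats. It was 16.48, 16.46, 16.45, 16.34 and 16.06 on the R arrays and 16.26, 16.08, 16.02, 15.94 and 16.12 on the RA arrays. All R arrays but replicate 5 lay above every RA array. The difference was -0.27 ± 0.10 (adjusted p = 0.15), and it passed the threshold after quantile normalization (-0.26, adjusted p = 0.039) and without R replicate 5 (-0.35, adjusted p = 0.044). In susceptible rats it was -0.06 ± 0.10, and the difference between the changes, 0.22 with an interval from -0.09 to 0.52, did not pass (adjusted p = 0.83).

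Psma5 differed most between the groups after dosing. On the RA arrays it was 15.13, 14.99, 15.05, 14.82 and 14.96, and on the SA arrays 15.49, 15.34, 15.63, 15.47 and 15.12. The groups overlapped by SA replicate 5 alone. SA minus RA was 0.42 ± 0.15 with an adjusted p of 0.36, and the change within susceptible rats was 0.31 ± 0.15 (adjusted p = 0.28). Psma1 gave the lowest difference in susceptible rats, with 14.48, 14.77, 14.41, 14.38 and 14.84 on the S arrays and 14.10, 14.29, 14.29, 14.48 and 14.24 on the SA arrays. The groups overlapped, at -0.30 ± 0.16 (adjusted p = 0.35), and the resistant rats' difference had the same sign (-0.21 ± 0.16). Psma3, Psma4 and Psma7 completed the ring, whose median was -0.10 in resistant and 0.17 in susceptible rats.

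The catalytic genes showed no called change. Psmb5, which carries the chymotrypsin-like site, was 15.16, 15.05, 15.12, 14.89 and 14.83 on the R arrays and 15.12, 14.86, 14.81, 14.38 and 14.96 on the RA arrays. On the S arrays it was 14.98, 15.19, 14.99, 15.10 and 14.78, and on the SA arrays 14.91, 14.95, 15.03, 15.31 and 14.89. The groups overlapped throughout, and only RA replicate 4 lay below the others by more than 0.3. The difference was -0.18 ± 0.13 in resistant rats (interval -0.46 to 0.10, adjusted p = 0.55) and 0.01 ± 0.13 in susceptible rats (interval -0.27 to 0.29, adjusted p = 0.98). The sign of the latter turned to -0.11 after quantile normalization and to -0.02 with the signals as deposited. Without RA replicate 4 the difference in resistant rats was -0.07.

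Psmb7, with the trypsin-like site, was 13.52, 13.41, 13.50, 13.23 and 12.80 on the R arrays and 13.42, 13.16, 13.24, 12.90 and 13.10 on the RA arrays. It was 13.25, 13.58, 12.94, 13.27 and 13.14 on the S arrays and 13.34, 13.20, 13.25, 13.75 and 13.21 on the SA arrays. Again the groups overlapped, with SA replicate 4 the highest and R replicate 5 the lowest array. The differences were -0.13 ± 0.16 for RA minus R and 0.11 ± 0.16 for SA minus S (adjusted p = 0.76 and 0.77), and the difference between them was 0.24 with an interval from -0.22 to 0.71 (adjusted p = 0.89). Single arrays moved these values: RA minus R was -0.25 without R replicate 5 and -0.06 without RA replicate 4, and SA minus S was 0.013 without SA replicate 4 and 0.20 without S replicate 2.

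Among the structural beta genes, Psmb2 gave the largest difference between the sub-groups' changes of all 33. It was 15.39, 15.37, 15.12, 15.11 and 14.65 on the R arrays and 15.04, 15.07, 15.06, 14.46 and 14.94 on the RA arrays. It was 15.18, 15.15, 14.84, 14.95 and 15.04 on the S arrays and 15.40, 15.17, 15.36, 15.54 and 14.90 on the SA arrays. RA lay mostly below R and SA mostly above S, with overlap in both. The changes were -0.21 ± 0.16 and 0.24 ± 0.16, and their difference was 0.45 with an interval from -0.02 to 0.92 (adjusted p = 0.74). Psmb1 was 16.31, 16.22, 16.29, 16.06 and 15.88 on the R arrays and 16.05, 16.00, 15.98, 15.58 and 16.03 on the RA arrays, with overlap by R replicate 5. It differed by -0.22 ± 0.11 in resistant rats (adjusted p = 0.34) and by -0.09 ± 0.11 in susceptible rats. Psmb3 and Psmb4 differed by -0.10 and -0.16 in resistant rats, so that all 4 structural genes were below 0 there, and by 0.09 and -0.07 in susceptible rats.

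**Figure D3:**
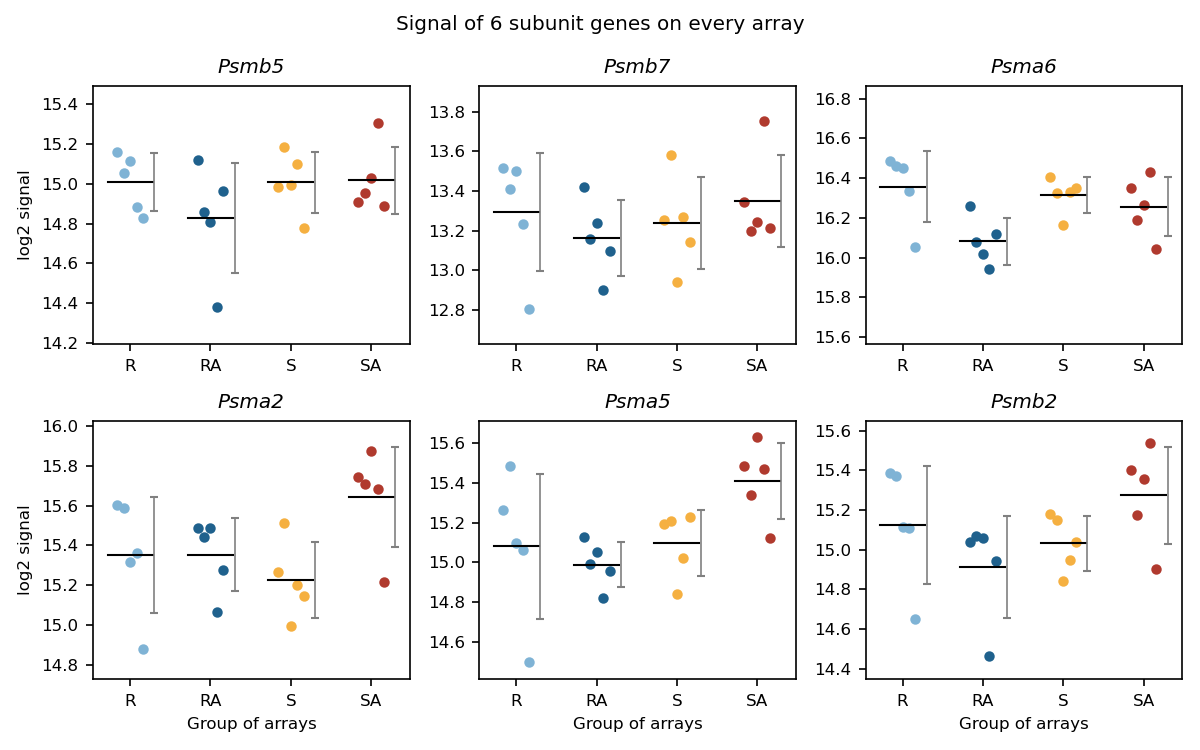
Log2 signal of 6 core genes on every array of the 4 groups (points), with the group mean (bar) and its SD (grey, n = 5), on axes of equal span that start above 0. For Psma2, 4 of the 5 SA arrays lie above every S array, and for each gene RA overlaps R and SA overlaps S.

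In the 19S particle the 6 ATPase genes had medians of -0.08 in resistant and -0.04 in susceptible rats. Psmc5 was 13.69, 13.68, 13.60, 13.14 and 12.93 on the R arrays and 13.71, 13.64, 13.58, 13.08 and 13.55 on the RA arrays. It gave their highest difference in resistant rats, at 0.11 ± 0.16 (adjusted p = 0.81), with the sign turned to -0.01 without R replicate 5. Psmc6 gave their lowest in susceptible rats, at -0.16 ± 0.12 (adjusted p = 0.53). Both had overlapping groups. Psmc6 was 13.42, 13.58, 13.38, 13.33 and 13.68 on the S arrays and 13.24, 13.46, 13.44, 13.31 and 13.14 on the SA arrays, and its 2 other probe sets gave -0.36 and -0.33 (adjusted p = 0.17 and 0.35).

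The 11 non-ATPase genes had medians of -0.04 and -0.08. Psmd3, a subunit of the lid of the particle, gave the lowest difference of these in resistant rats, with 13.05, 12.96, 12.88, 12.90 and 12.67 on the R arrays and 12.63, 12.78, 12.57, 12.42 and 12.86 on the RA arrays. The difference was -0.24 ± 0.12 (adjusted p = 0.31), and the groups overlapped, RA replicates 2 and 5 lying above R replicate 5. Psmd7 and Psmd12 are also subunits of the lid. Psmd7 was 13.46, 13.68, 13.57, 13.57 and 13.24 on the S arrays and 13.30, 13.23, 13.40, 13.59 and 13.29 on the SA arrays. Psmd12 was 12.50, 12.65, 12.67, 12.61 and 12.54 on the R arrays and 12.68, 12.85, 12.84, 12.44 and 12.69 on the RA arrays. Both pairs of groups overlapped. Psmd7 and Psmd12 differed by -0.14 ± 0.12 and -0.10 ± 0.11 in susceptible rats and by -0.03 ± 0.12 and 0.11 ± 0.11 in resistant rats. For Psmd8, SA minus RA was 0.27 ± 0.11 (adjusted p = 0.47). The ubiquitin receptor Psmd4, the deubiquitinase Psmd14 and the scaffold genes Psmd1 and Psmd2 lay within 0.2 of 0 in both changes. So did Psmd6, Psmd11 and Psmd13. These values are of the probe set used for each gene.

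Psmd5, Psmd9 and Psmd10 encode factors that help to assemble the ATPase ring and are not part of the finished particle. Psmd5 gave a difference above 0 in both sub-groups and passed in neither. It was 13.16, 13.22, 13.00, 13.06 and 13.21 on the R arrays and 13.37, 13.34, 13.30, 13.15 and 13.28 on the RA arrays. It was 13.07, 13.26, 12.97, 13.33 and 12.76 on the S arrays and 13.29, 13.36, 13.25, 13.54 and 13.28 on the SA arrays. RA replicate 4 alone lay within the R range, while S replicates 2 and 4 reached into the SA range. The differences were 0.16 ± 0.11 (adjusted p = 0.50) and 0.27 ± 0.11 (adjusted p = 0.16). Psmd9 and Psmd10 differed by -0.15 and -0.07 in resistant rats and by 0.07 and 0.11 in susceptible rats.

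The medians of the core and the 19S particle are given side by side, with no test between them. In resistant rats the 13 core genes had a median of -0.13 with 12 below 0, and the 17 particle genes one of -0.04 with 14 below 0. In susceptible rats the medians were 0.09 and -0.07, and for SA minus RA 0.17 and 0.03, with 12 of 13 core genes above 0. The mean core signal less the mean particle signal within an array, which a common scaling factor leaves unchanged, was computed after these medians had been seen and was not tested. It was 1.28, 1.24, 1.27, 1.19 and 1.01 on the R arrays, 1.18, 1.08, 1.12, 1.11 and 1.10 on the RA arrays, 1.23, 1.22, 1.12, 1.14 and 1.12 on the S arrays, and 1.30, 1.31, 1.28, 1.34 and 1.18 on the SA arrays. The lowest SA value (1.1773) lay just above the highest RA value (1.1762), while RA overlapped R and SA overlapped S. Its level depends on probe strength, and only its differences between arrays, a mean of 0.16 between SA and RA, can be read. After quantile normalization the core and particle medians of SA minus RA were 0.09 and -0.04, with 9 of 13 core genes above 0, and those of susceptible rats were -0.06 and -0.10, so that the core median turned its sign. Without RA replicate 4 the particle medians turned to 0.02 in resistant rats and to -0.06 for SA minus RA.

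Within groups, the subunit genes moved together from array to array. After group means were removed, the median Pearson r over the 528 pairs of genes was 0.60 across 20 arrays, and 96.8% of pairs were positive. It was 0.77 within the core, 0.54 within the particle and 0.66 between them. Between the 33 genes and all other probe sets tested it was 0.07. Those include probe sets of low signal, and genes of similar signal were not compared. The contrast is therefore not read as a trait of the subunit genes. Psmb1, Psmb3 and Psmb2 had the highest mean r with the other 32 genes (0.70, 0.68 and 0.68), and Psmd5, Psmd4 and Psmd12 the lowest (0.24, 0.18 and 0.14). All genes of an array share its scaling. After quantile normalization the medians were 0.22 over all pairs, 0.57 within the core, 0.13 within the particle and 0.28 between them. Between the 33 genes and all other probe sets the median was then 0.0006. These correlations describe the arrays, among them the low RA replicate 4 and R replicate 5, and carry no p.

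**Figure D4:**
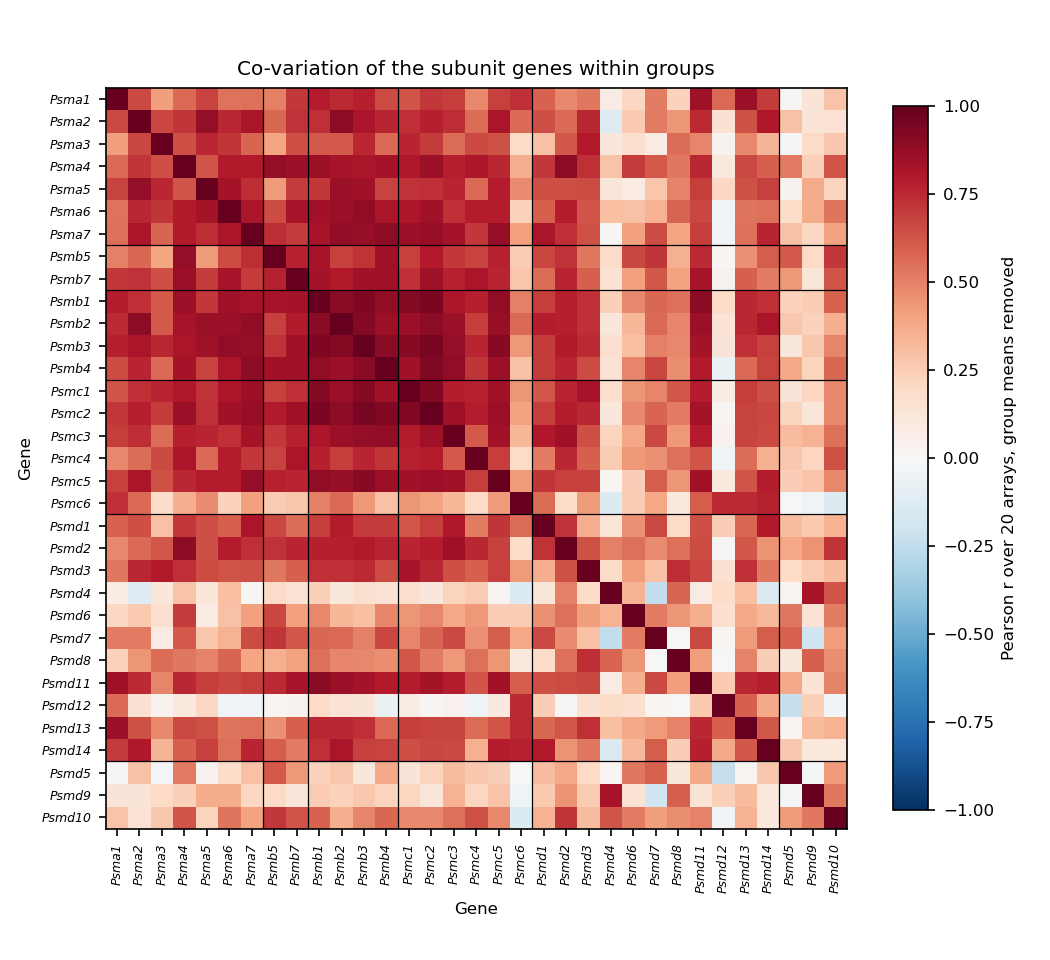
Pearson r between the 33 subunit genes over 20 arrays with group means removed, in order of role with lines between the roles, on a scale from -1 (blue) to 1 (red). The block of core genes and Psmc1 to Psmc5 is dark red, while the bands of Psmd4, Psmd12, Psmd5 and Psmd9 are pale.

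Of the 11 further probe sets that name these genes, none passed the adjusted threshold in either change. The largest departures were on probe sets of low signal. A second probe set of Psmb5, with a mean log2 signal of 6.91, differed by -2.30 ± 0.73 in resistant rats (adjusted p = 0.081), and one of Psmd11, with a mean of 7.40, by 1.62 ± 0.55 (adjusted p = 0.11). The Psmd11 probe set with a mean of 14.50 differed by 0.03 ± 0.11 in resistant and 0.18 ± 0.11 in susceptible rats. The one used gave -0.10 and -0.13. For Psmd14, a probe set with a mean of 13.95 differed by -0.24 ± 0.13 and -0.06 ± 0.13 (adjusted p = 0.35 and 0.87). Another, with a mean of 10.11, differed by 0.07 ± 0.13 and 0.20 ± 0.13, and the one used gave -0.04 and -0.12. With the mean of all 3 probe sets in place of 1, the difference of Psmb5 in resistant rats was -0.94 (adjusted p = 0.28).

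Of the genes that work with the constitutive subunits, Psme2 and Psmb9 passed the threshold, in susceptible rats. Psme2, a subunit of the interferon-induced PA28 activator that opens the core, rose by 0.67 ± 0.19 (adjusted p = 0.047) and differed by -0.32 ± 0.19 in resistant rats (adjusted p = 0.45). Psmb9, an immunoproteasome subunit, rose by 0.59 ± 0.15 (adjusted p = 0.023) and differed by 0.04 ± 0.15 in resistant rats. The differences between the changes were 0.98 for Psme2 and 0.55 for Psmb9 (adjusted p = 0.38 and 0.59), so neither was shown to respond differently in the sub-groups. In runs added after the data had been seen, the Psme2 call was lost after quantile normalization (0.50, adjusted p = 0.056), with the signals as deposited (adjusted p = 0.051) and on leaving out any of 16 of the 20 arrays (adjusted p up to 0.12). The Psmb9 call held under both scalings and on leaving out 16 of 20 arrays, and was lost without S replicates 3 or 4 or SA replicates 1 or 3 (adjusted p up to 0.067). Leaving out an R or RA array cannot move SA minus S itself, only its spread and adjusted p. All the lost Psmb9 calls fell among the S and SA arrays, which enter the difference. Psmb8 and Psmb10 differed by 0.41 ± 0.14 and 0.23 ± 0.17 for SA minus S (adjusted p = 0.10 and 0.53). Psme2 was the 1 gene called of the 4 measured activator and inhibitor genes (median 0.18), and Psmb9 the 1 of 3 immunoproteasome genes (median 0.41).

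**Figure D5:**
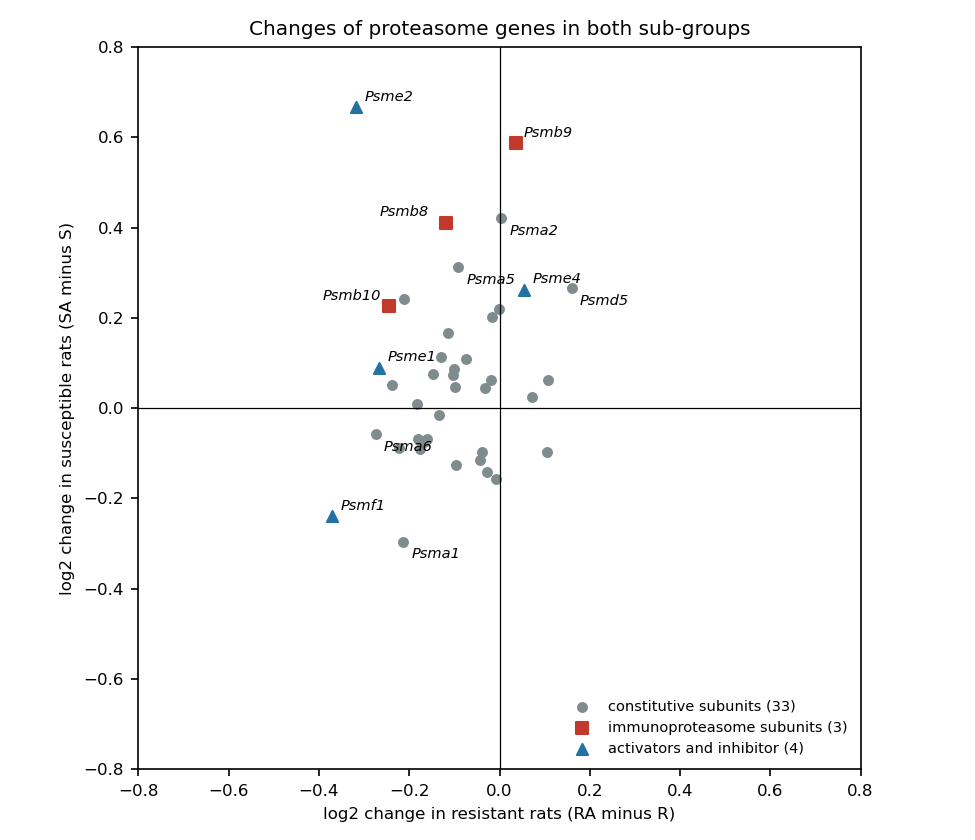
Log2 change in resistant rats (x axis) against that in susceptible rats (y axis) for the 33 constitutive subunit genes (grey), 3 immunoproteasome subunits (red squares) and 4 activator and inhibitor genes (blue triangles). Psme2 at 0.67 and Psmb9 at 0.59 lie highest, above Psma2 at 0.42, and most constitutive genes lie left of 0.

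No other list of the pathway had a called gene in either change. For the 5 genes of core assembly, such as the chaperone Pomp, the medians were 0.01 in resistant and 0.13 in susceptible rats, and for 7 associated subunits and shuttles, such as the deubiquitinase Usp14, they were -0.16 and -0.04. For the 4 genes of transcriptional control the medians were 0.19 and 0.11. Nfe2l1, described above, differed by 0.15 ± 0.12 and 0.21 ± 0.12 (adjusted p = 0.62 and 0.40). Ddi2, the protease that activates its product, differed by 0.36 ± 0.12 for RA minus R and -0.12 ± 0.12 for SA minus S (adjusted p = 0.11 and 0.66). For 5 genes of ubiquitin activation and extraction, such as the ATPase Vcp, the medians were -0.13 and -0.05.

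Markers of blood cell types differed between predose and postdose arrays. Natural killer cell markers were called higher in 7 of 7 genes in both sub-groups, with medians of 1.14 in resistant and 1.13 in susceptible rats, and neutrophil markers in 3 and 5 of 8. Lower calls in susceptible rats were 2 of 6 monocyte, 2 of 4 B cell, 1 of 8 T cell and 1 of 8 neutrophil markers. Platelet and erythroid markers had no call, and proliferation genes were called lower in 2 of 6 in resistant and 1 of 6 in susceptible rats. The summed signal of the natural killer list ran from 177519 to 288617 on the R arrays, 361432 to 520491 on RA, 178439 to 238993 on S and 314920 to 504960 on SA. Of 6 liver genes, albumin (Alb) rose in susceptible rats (3.17 ± 0.76, adjusted p = 0.016, and 0.0505 without SA replicate 1). The other 5 had no call, with 3 below 0 (Apoa1 -0.19 ± 0.60, Fga -0.48 ± 0.46 and Fgb -0.83 ± 0.63). Mean log2 signals of the liver genes ran from 5.62 (Apoa1) to 9.35 (Serpina1), below the array median of 9.97, so their signs are uncertain. The median of the 6 was 0.54, and their summed signal ran from 2556 to 23755 on the SA arrays against at most 2783 elsewhere. In whole blood, fewer cells of a type and less RNA per cell cannot be told apart, and the part of these shifts in the subunit genes' values was not tested.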

How the data were processed

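The authors deposited 1 linear signal intensity per probe set and array, with array medians from 187.4 to 223.0. The methods state handling in ArrayTrack and a median of 1000 per chip, which the deposited medians do not show; the software that summarized the probes is not given in the sources used here. Here the 57 control probe sets were removed, the other 31042 were set to a common median of 1000 on each array, and log2 was taken. Those under 100 on all 20 arrays (predose comparison: on all 10 predose arrays) were left out, and 30747 (predose 30416) remained. Symbols came from the platform annotation (20826 probe sets with 1 symbol, 436 with several, 9780 with none). Groups followed the titles of the labels. Fits used limma 3.58.1 in R 4.3.3 (lmFit, eBayes) on 4 group means over all 20 arrays, or on the 10 predose arrays, and were tested on simulated data. The methods' test was run on the log2 values. The arrays have no count depth, and their number limits the precision.

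The subunit genes and all lists were chosen with earlier results of these data known. Values on the arrays of at least 1 comparison were given for the catalytic genes and for the 3 genes with the largest difference in each direction in either change or in their difference; Psmd8 was named after its values were seen. Lists covered activators and inhibitor, core assembly, associated subunits and shuttles, transcriptional control, ubiquitin activation and extraction, the immunoproteasome, neutrophils, monocytes, T, B and natural killer cells, platelets, erythroid cells, liver and proliferation. The 5 arrays of a group come from 5 rats, and the labels do not tie predose to postdose arrays of a rat. The fits therefore leave out that predose and postdose blood came from the same rats. This holds for the SEs, intervals and p of both changes and of their difference. The array files name no genome build, so gene positions are not given; promoter windows are RefSeq's of GRCr8. Plots used matplotlib 3.10.9 (Python 3.11.15).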

Additional observations from a re-analysis of the deposited data

Results flagged for a closer look

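The 14 genes with values by array and the mean of the 33 genes were searched for an array far from the other 4 of its group, by Dixon's ratio at the 95% level, in 60 groups of arrays. It marked 6, where chance alone marks about 1 in 20 groups. On RA replicate 4 the mean of the 33 genes was 13.96 (others 14.27 to 14.36), Psmb1 was 15.58 (others 15.98 to 16.05), Psmb2 14.46 (others 14.94 to 15.07) and Psmc5 13.08 (others 13.55 to 13.71). On SA replicate 5 Psma2 was 15.21 (others 15.69 to 15.87), and on SA replicate 4 Psmb7 was 13.75 (others 13.20 to 13.34). The genes of an array share its scaling, so the 4 marks of RA replicate 4 are not separate events.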

How the results depend on the processing

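For the 34 results, 968 values were computed under alternatives, and 953 kept their direction and side of the threshold. Many of these runs could not turn a direction. A change of filter, test or block, or the loss of an array outside the comparison, leaves a gene's difference of group means as it was. Such runs can only move the side of the threshold, so the count of 953 is no measure of how stable the directions are. The median of the genes turned its sign in 3, within the spread between arrays: -0.06 in susceptible rats after quantile normalization, and 0.0004 and 0.0086 before dosing without R replicate 1 or 2. Quantile normalization called 1 subunit gene in resistant rats (Psma6, -0.26). Leaving out each array in turn gave 0 to 1 called genes in resistant and in susceptible rats. Over these, Psma6 in resistant rats ran from -0.35 (without R replicate 5, when it was called) to -0.24, and Psma2 in susceptible rats from 0.36 to 0.53 (without SA replicate 5, when it was called). Psmc5 in resistant rats ran from -0.013 to 0.21, below 0 without R replicate 5, and Psmb5 in susceptible rats from -0.063 to 0.054, at -0.063 without SA replicate 4 and -0.049 without S replicate 5. Psmb5 in susceptible rats was -0.11 after quantile normalization and -0.024 with values as deposited, and the mean over the probe sets of Psmd7 gave 0.013 where its single probe set gave -0.11 for the difference between the changes. The mean over its probe sets moved Psmb5 from -0.18 to -0.94 in resistant rats and from 0.19 to 1.12 for the difference between the changes, with no call. Its other probe sets, with mean log2 signals of 6.91 and 8.15, differed by -2.30 and -0.34 in resistant rats. For the difference between the changes they gave 2.33 and 0.83, and these values enter the mean. Why they differ from the probe set used was not tested. The remaining counts were 0 of 33 under every alternative run, among them the filters, 1 probe set per gene, only the arrays compared and the methods' test.

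With the replicate number as a block, 0 subunit genes were called in each comparison. Each number occurs once in every group, so the block could not move the medians of -0.10 in resistant and 0.05 in susceptible rats. Between R and RA, arrays with equal numbers correlated at -0.01 to 0.02, and between S and SA at -0.03 to 0.05. R against S and RA against SA, which hold different rats and cannot be pairs, gave -0.09 to 0.05. Over all of these, 8 of 20 correlated best with their own number. The numbers were not read as pairs. Scaling and 5 arrays per group limit what was seen: many intervals include changes of either sign, no vehicle rats were on arrays, and mixed blood cells cannot be separated.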
